A study of Mus musculus with 18 samples.

Results

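The genes described here are a list of 39 genes of fatty acid oxidation, ketone body synthesis and the response to PPAR alpha, the nuclear receptor that switches many of these genes on. They were chosen by name, with earlier results of these data known. Their counts, set beside the shares over all genes below, therefore describe the list and do not test it. For each gene the probe set with the highest mean over all 18 arrays was used, among probe sets annotated to exactly 1 gene, which gave 36 of the 39 genes a value, out of 18193 genes in all. Acsl1, Cpt1b and Cyp4a10 had no such probe set. The list was arranged by role into the receptor itself, secreted factors, fatty acid binding, the carnitine shuttle, mitochondrial beta-oxidation, auxiliary enzymes for unsaturated chains, peroxisomal oxidation, acyl-CoA thioesterases, omega-hydroxylation, and enzymes of fuel choice, ketone and pantetheine metabolism.

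The study used galactosamine (GalN), a toxin that acts selectively on the liver, in male C57BL6 mice of 20 g. One group of 3 mice received saline into the peritoneum and was examined at 24 h; it is called sham below and served as the comparison for both later times, since no saline group at 48 h was described. The other groups of 3 mice received 4.5 g/kg GalN by the same route and were examined at 24 h or at 48 h. Liver and kidney were perfused, a part of each organ was homogenised, and RNA was hybridised to Affymetrix expression arrays, 1 array for each of 3 samples per organ and time (A, B and C). The labels state no age and do not say in words that each array is 1 mouse. If the letters are not separate mice, the p-values measure only the spread between these samples, which may be technical. Because a piece of whole organ was used, fewer cells of a type and less RNA per cell cannot be told apart.

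Fatty acids are bound in the cytosol by carrier proteins, activated to acyl-CoA and passed into mitochondria as carnitine esters, where beta-oxidation shortens them stepwise to acetyl-CoA. Very long and branched chains start in peroxisomes, and omega-hydroxylation in the endoplasmic reticulum offers a side route. In fasting liver PPAR alpha raises much of this machinery and the acetyl-CoA feeds ketone bodies, and in kidney the proximal tubule relies on fatty acids as its main fuel.

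Both organs matched their labels. None of 10 hepatocyte markers was at background on all arrays of a liver group, while Tat, Ahsg and Cps1 were at background on all arrays of every kidney group. The list was not absent from kidney, where Ttr, Cyp2e1 and Hnf4a also read high. In sham kidneys Ttr read 15.297, 15.202 and 15.546, Cyp2e1 15.01, 15.121 and 15.349 and Hnf4a 13.584, 14.005 and 13.903. In sham livers Hnf4a read 12.973, 13.38 and 14.001. The summed level of all 10 was 16.39 to 16.68 in sham kidneys and 18.95 to 18.98 in sham livers, as log2 of the summed intensities. None of 11 proximal tubule markers was at background on all arrays of a kidney group, and 6 or 7 of them were in each liver group. Values are log2 intensities with a lowest value of 2.21. A reading is called background here when it lies within 1 unit of that value or equals the reading of another array exactly. The counts of markers at background used only the first of these, a reading within 1 unit. Within a group, arrays correlated at 0.983 to 0.998 over all probe sets. Liver array 48 h C stood apart from the other livers, with an actin 3' to 5' gap of 2.56 log2 units against 1.48 to 1.95. Kidney arrays sham A and 24 h A carried brown fat genes: Ucp1 read 7.67 and 10.95 there and at most 2.28 on every other kidney array.

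Promoter letters are shown first for 4 members, because the receptor binds a direct repeat and because the neighbouring thioesterase genes Acot1 and Acot2 rose in liver. Acot4, beside them, was not called in liver. The promoters of Acot3, another neighbour, also held matches but are not printed. RefSeq promoters (GRCm38.p6, 250 bases before to 50 after a gene's start) were found for 29 of the 39 genes, 32 promoters in all. They were searched for the half-site AGGTCA and a second copy in tandem with 1 base between them, on both strands, with at most 3 mismatches in the 12 fixed letters. Fabp1 held the closest match of any member, with 1 mismatch. The 250 bases before each start are printed 5' to 3' on the gene's strand, and capitals mark the matched letters.
Fabp1 (chr6:71199629-71199878, plus strand): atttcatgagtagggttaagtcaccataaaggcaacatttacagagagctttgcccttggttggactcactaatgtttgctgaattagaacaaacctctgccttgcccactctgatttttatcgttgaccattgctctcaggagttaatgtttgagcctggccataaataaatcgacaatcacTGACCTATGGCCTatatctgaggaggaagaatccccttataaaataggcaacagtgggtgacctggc
Acot2 (chr12:83987611-83987860, plus strand): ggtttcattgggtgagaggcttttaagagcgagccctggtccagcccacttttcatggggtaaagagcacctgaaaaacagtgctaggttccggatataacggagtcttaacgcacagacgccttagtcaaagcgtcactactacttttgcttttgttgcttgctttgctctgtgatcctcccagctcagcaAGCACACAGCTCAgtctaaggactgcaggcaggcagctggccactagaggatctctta
Acot1 (chr12:84009252-84009501, plus strand): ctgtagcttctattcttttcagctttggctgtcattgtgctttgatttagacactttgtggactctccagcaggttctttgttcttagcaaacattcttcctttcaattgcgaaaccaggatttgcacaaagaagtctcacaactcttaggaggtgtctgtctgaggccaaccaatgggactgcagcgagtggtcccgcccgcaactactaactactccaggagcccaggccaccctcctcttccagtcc
Acot4 (chr12:84038129-84038378, plus strand): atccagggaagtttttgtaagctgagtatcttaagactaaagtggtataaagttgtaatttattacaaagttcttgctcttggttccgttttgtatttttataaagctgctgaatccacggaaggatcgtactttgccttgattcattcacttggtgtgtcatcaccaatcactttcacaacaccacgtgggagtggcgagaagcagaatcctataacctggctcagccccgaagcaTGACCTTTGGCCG
The match in Fabp1 ran from 67 to 55 bases before the start on the opposite strand, that of Acot2 from 58 to 46 bases before it on the gene's strand, and that of Acot4, with 2 mismatches, from 13 bases before the start to 1 base before it on the opposite strand. Acot1, which had the largest called rise of the list in liver, held no match within 3 mismatches. Of the 32 member promoters 9 held a match, or 28.1%, and of all 32851 promoters 24.6% did. At 2 mismatches or fewer, 2 of the 32 member promoters held a match, and 1268 of all 32851 promoters did, or 3.86%. A match describes letters in this window and no more.

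Changes in each organ were tested with limma over all genes that passed a filter on low values (12062 in liver, 11990 in kidney), with Benjamini-Hochberg adjustment over all of them. A gene is said to have risen or fallen when its adjusted p is below 0.05. All 36 members passed the filter in both organs, since each lay above the median of every array. Fgf21 passed in kidney at a constant background value.

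In liver at 24 h members changed in both directions. The receptor Ppara, the fatty acid carrier Fabp1, the carnitine shuttle genes Cpt1a and Crot, 2 of 6 peroxisomal members, the ketone enzyme Bdh1 and 3 others fell. The thioesterases Acot1 and Acot2 and the kinase Pdk4 rose, and 8 of 9 members of the mitochondrial spiral were not called. In all 3 members rose, where 17.9% of all genes rose, and 10 fell, where 15% of all genes fell. The remaining 23 were not called, and a rank product analysis called 3 members in place of 13 (1 higher and 2 lower). The median difference over the members was -0.27, and over all genes tested it was 0.01. At 48 h the direction had turned: 9 members were higher than in sham, where 6.25% of all genes were, and 0 were lower, where 3.94% of all genes were. At an unadjusted p under 0.05, 16 members were higher and 1 lower, and a rank product analysis called 8 higher and 0 lower. The median difference was 0.51, against 0.03 over all genes. Leaving out sham A, 48 h A or 48 h B lowered the count at 48 h from 9 to 5.

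Between 24 h and 48 h in liver 19 members rose, where 14.7% of all genes rose, and 0 fell, where 13.2% of all genes fell. The unadjusted counts were 21 and 0, and a rank product analysis gave 7 and 0. The median difference was 0.80, against 0 over all genes. The 24 h group enters both this comparison and that of 24 h with sham, so a low value at 24 h moves both.

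Markers of other cells moved in the same livers. At 24 h, 6 of 10 macrophage markers, 6 of 10 endothelial markers and 3 of 9 stellate cell and fibroblast markers rose. The summed macrophage level, given as log2 of the summed intensities, went from between 12.96 and 13.57 in sham to between 14.47 and 14.63 at 24 h and between 14.16 and 14.27 at 48 h. That of endothelium was 10.58 to 10.84 in sham, 11.18 to 12.17 at 24 h and 11.14 to 11.47 at 48 h, and that of stellate cells and fibroblasts 12.30 to 12.80, 13.21 to 13.23 and 12.31 to 13.33. No macrophage marker was at background on all 3 livers of a group, but Cd68 was at background in sham A and sham C and Marco in sham A. The endothelial marker Pecam1 read 3.375 on all 3 sham livers, a repeated and so a background reading. Of 10 hepatocyte markers 2 fell at 24 h and 4 at 48 h, and their summed level was 18.95 to 18.98 in sham, 18.77 to 18.85 at 24 h and 18.58 to 18.82 at 48 h. Adipocyte markers Adipoq, Retn and Lep were at background in every liver group. The part of these markers in the results below was not tested.

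**Figure D1:**
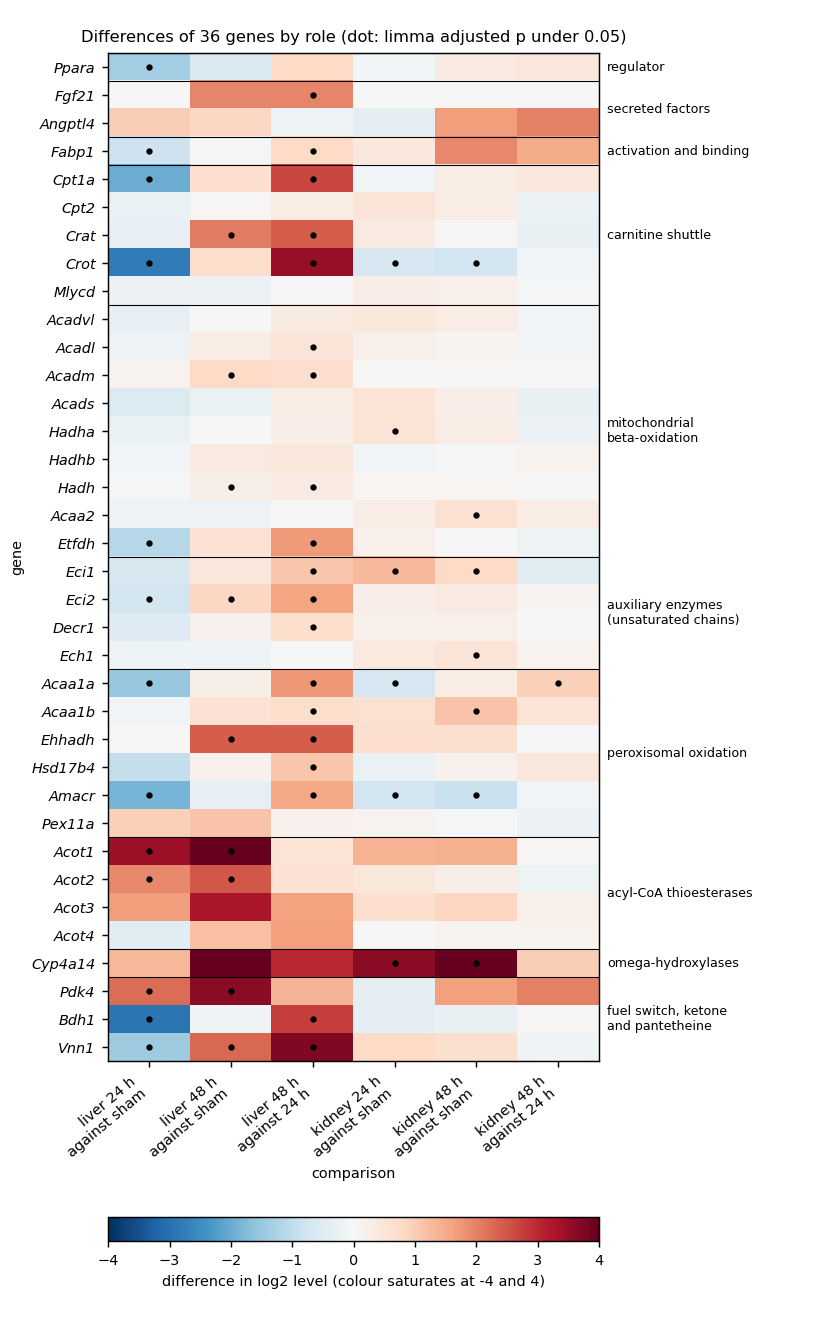
Colour gives the difference in log2 level of each of the 36 genes (rows, grouped by role) in 6 comparisons (columns, 3 for liver and 3 for kidney), with red for higher, blue for lower and a dot where limma's adjusted p is below 0.05. Liver at 24 h holds 10 of the blue called squares, liver at 48 h against 24 h has 19 called squares, all red, and kidney has few called squares at either time.

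The receptor Ppara read 11.45, 12.09 and 11.95 in the sham livers, 9.91, 10.69 and 10.75 at 24 h, and 11.73, 11.74 and 10.30 at 48 h. All 24 h livers lay below all sham livers, while the 48 h livers overlapped both. At 24 h Ppara was 2.60-fold lower (log2 -1.38, SE 0.44, adjusted p = 0.0485), and its other 2 probe sets differed by -1.54 and -1.89. That call was at the edge: it was lost on leaving out any 1 of the 9 liver arrays other than 48 h C, with adjusted p from 0.055 to 0.138. At 48 h the difference from sham was -0.57 (adjusted p = 0.475).

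Of the secreted factors, Fgf21, a fasting hormone and textbook target of the receptor, read 2.67, a background value, on every array of both organs except the 48 h livers, where it read 4.01, 3.75 and 6.11. Against 24 h this rise was called (log2 1.95, adjusted p = 0.038) and against sham it was not (adjusted p = 0.0731). Since the other groups are at background, the size is a lower bound, and without 48 h C it was 1.21. The call was lost on leaving out any sham or 24 h liver (adjusted p 0.0608 to 0.0953). Angptl4, a secreted inhibitor of lipoprotein lipase, read 10.27, 11.16 and 11.55 in sham, 11.88, 11.85 and 12.25 at 24 h and 12.32, 11.85 and 11.26 at 48 h. Its 24 h livers all lay above sham, but the difference of 1.00 missed the threshold (adjusted p = 0.0851).

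Fabp1, the fatty acid carrier of the liver cytosol whose promoter is printed above, read 16.89, 16.69 and 16.87 in sham, 16.06, 16.10 and 15.81 at 24 h and 16.67, 16.78 and 16.89 at 48 h. It fell by 0.83 at 24 h (SE 0.11, adjusted p = 0.00142), or 1.77-fold, and rose by 0.79 from 24 h to 48 h (adjusted p = 0.0023), to a level within 0.04 of sham on average (-0.04, adjusted p = 0.89).

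In the carnitine shuttle 2 of 5 members fell at 24 h and 1 of 5 rose at 48 h. Cpt1a, the outer membrane carnitine palmitoyltransferase and rate-limiting step, read 11.98, 12.14 and 12.33 in sham, 10.13, 10.59 and 9.78 at 24 h and 12.76, 13.24 and 12.52 at 48 h. The 24 h livers were the lowest and the 48 h livers the highest, with no overlap between any of the groups. On another bright Cpt1a probe set sham (12.04, 12.43 and 12.65) and 48 h (12.74, 12.97 and 11.87) overlapped. The remaining set kept them apart. Cpt1a was 3.95-fold lower at 24 h (log2 -1.98, SE 0.25, adjusted p = 0.0014) and 6.36-fold higher at 48 h than at 24 h (adjusted p = 7.16e-04). Its level at 48 h was 0.69 above sham, which was not called (adjusted p = 0.144).

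Crot, the peroxisomal carnitine octanoyltransferase that exports shortened chains, followed the same course. It read 13.18, 13.62 and 13.53 in sham, 11.14, 10.77 and 10.05 at 24 h and 14.23, 14.24 and 13.94 at 48 h, again with separate groups. It was 6.91-fold lower at 24 h (log2 -2.79, SE 0.27, adjusted p = 5.67e-04) and 11.2-fold higher at 48 h than at 24 h (adjusted p = 4.55e-04). A second, dim Crot probe set lay at the floor in all groups, so that averaging both sets brought the 24 h difference to -1.39.

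Crat, the carnitine acetyltransferase that buffers acetyl-CoA, moved late. Its sham livers read 8.39, 7.82 and 7.62, its 24 h livers 8.0, 7.61 and 7.26 and its 48 h livers 10.01, 10.47 and 9.62. The 48 h livers stood apart, at 4.24-fold above sham (log2 2.09, SE 0.31, adjusted p = 0.00991). A dimmer probe set differed by 0.75, and another was at background on all liver arrays, so that averaging all 3 brought the difference to 0.99. Cpt2, the inner membrane partner of Cpt1a, and Mlycd, the malonyl-CoA decarboxylase that relieves Cpt1a of its inhibitor, were not called in any liver comparison, with differences from sham between -0.25 and 0.05.

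Of the 9 enzymes of mitochondrial beta-oxidation 1 gene was called at 24 h, and their median difference was -0.22. That gene was Etfdh, which passes electrons from the acyl-CoA dehydrogenases to ubiquinone. It read 12.68, 12.80 and 12.85 in sham, 12.09, 11.89 and 10.95 at 24 h and 13.33, 13.46 and 13.23 at 48 h. It was 2.19-fold lower at 24 h (log2 -1.13, SE 0.27, adjusted p = 0.0178), a call lost without sham B (adjusted p = 0.0565) or sham C (adjusted p = 0.0543), and it rose by 1.70 from 24 h to 48 h (adjusted p = 0.00427).

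The dehydrogenases Acadvl, Acadl, Acadm and Acads take very long, long, medium and short chains. At 24 h their differences from sham lay between -0.55 and 0.14, with none called (adjusted p 0.11 to 0.412). The 24 h arrays were uneven. For Acadvl, Acadl and Acads, 24 h B and 24 h C lay below every sham liver and 24 h A did not, while Acadm lacked this pattern. Acads read 10.68, 9.94 and 9.96 at 24 h against 10.79, 10.77 and 10.66 in sham. Acadm then read 13.37, 13.32 and 13.57 at 48 h against 12.57, 12.67 and 12.58 in sham, a rise of 0.81 or 1.76-fold (SE 0.12, adjusted p = 0.00938) with no overlap. Acadl rose from 24 h to 48 h by 0.51 (adjusted p = 0.0236), a call lost without 24 h B, 24 h C, 48 h B or 48 h C (adjusted p 0.0571 to 0.0746). Hadh, the hydroxyacyl-CoA dehydrogenase of short chains, differed from sham at 48 h by 0.23 (SE 0.06, adjusted p = 0.0439), or 1.18-fold. That call was lost without any 1 of 7 arrays (adjusted p 0.0638 to 0.139), and it held without 24 h A or 48 h C. Of its dimmer probe sets, 1 differed by 1.18. Hadha and Hadhb, the subunits of the trifunctional protein, and the thiolase Acaa2 were not called in liver, with differences from sham of -0.28 to 0.35.

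Among the auxiliary enzymes, which reshape double bonds so that unsaturated chains can enter the spiral, Eci2 was called at every comparison. This enoyl-CoA isomerase read 11.83, 12.19 and 12.45 in sham, 11.75, 11.34 and 11.17 at 24 h and 12.84, 13.02 and 13.09 at 48 h. It was 1.67-fold lower at 24 h (adjusted p = 0.0287), 1.77-fold higher at 48 h (adjusted p = 0.0456) and 2.95-fold higher at 48 h than at 24 h (adjusted p = 0.00198). The first call was lost without sham B, sham C, 24 h B or 24 h C (adjusted p 0.0814 to 0.0902) and the second without any array but 24 h A (adjusted p 0.0532 to 0.124). Its mitochondrial relative Eci1 and the dienoyl-CoA reductase Decr1 differed from sham at 24 h by -0.64 and -0.53, not called, and rose from 24 h to 48 h by 1.10 (adjusted p = 0.025) and 0.70 (adjusted p = 0.0311). Those calls were lost without 24 h B, 24 h C, 48 h A or 48 h C for both genes and also without sham A or sham B for Decr1, with adjusted p from 0.0514 to 0.0931. A dimmer Decr1 probe set read 9.71, 9.82 and 9.81 in sham and 6.90, 7.92 and 7.94 at 24 h, all below sham. At 48 h it read 9.60, 9.51 and 9.92, and this set was not tested on its own. Ech1, the dienoyl-CoA isomerase, differed from sham by -0.17 and -0.20.

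Peroxisomal members took different courses. The racemase Amacr, which prepares branched chains and bile acid intermediates for oxidation, read 13.22, 13.15 and 12.95 in sham, 11.20, 11.33 and 11.18 at 24 h and 12.65, 12.91 and 12.81 at 48 h. It was 3.66-fold lower at 24 h (log2 -1.87, SE 0.10, adjusted p = 9.58e-05) and rose by 1.55 by 48 h (adjusted p = 2.58e-04), with the 48 h livers still all below sham (difference -0.32, adjusted p = 0.106). The thiolase Acaa1a read 11.25, 11.58 and 11.66 in sham, 10.58, 9.73 and 9.63 at 24 h and 11.47, 11.50 and 12.18 at 48 h. It was 2.86-fold lower at 24 h (log2 -1.51, SE 0.30, adjusted p = 0.00866) and rose by 1.74 by 48 h (adjusted p = 0.00593). A dimmer Acaa1a probe set fell less, from 9.49, 9.55 and 9.56 in sham to 9.02, 8.56 and 8.61 at 24 h. Acaa1b, the near-identical copy of Acaa1a, differed from sham by -0.11 at 24 h and 0.59 at 48 h (adjusted p = 0.0562). Probe sets shared by both copies were left out, and cross-hybridisation between them cannot be told apart here.

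Ehhadh, the peroxisomal bifunctional enzyme, was not called at 24 h (-0.01) and stood above sham at 48 h. It read 13.03, 12.85 and 12.47 in sham, 13.24, 12.99 and 12.08 at 24 h and 15.55, 15.36 and 14.68 at 48 h. The rise was 5.33-fold (log2 2.41, SE 0.35, adjusted p = 0.00988), and the 48 h livers overlapped neither other group. Hsd17b4, the other bifunctional enzyme, differed by -0.94 at 24 h (adjusted p = 0.0526) and rose by 1.11 from 24 h to 48 h (adjusted p = 0.0338). This was lost without any array but 24 h A or 24 h C (adjusted p 0.051 to 0.0886). Pex11a, a membrane protein that drives peroxisome division, read 9.31, 10.32 and 10.99 in sham and between 10.71 and 11.50 in every GalN liver, and was not called (differences 0.97 and 1.13, adjusted p 0.12 and 0.144).

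The acyl-CoA thioesterases, which free the fatty acid from coenzyme A, held the largest called rise of the list in liver at both times. Acot1, the cytosolic form, read 7.16, 7.31 and 7.61 in sham, 11.19, 10.97 and 10.18 at 24 h and 11.45, 11.43 and 11.11 at 48 h. It was 10.7-fold higher at 24 h (log2 3.42, SE 0.27, adjusted p = 2.59e-04) and 15.7-fold higher at 48 h (log2 3.97, adjusted p = 0.00148). The GalN livers at both times lay more than 2 log2 units above every sham liver, and the difference between the times was not called (0.55, SE 0.27, adjusted p = 0.177).

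Acot2, the mitochondrial form, read 6.54, 7.11 and 5.11 in sham, 8.65, 8.01 and 7.86 at 24 h and 8.72, 8.58 and 8.90 at 48 h, without overlap with sham. It was 3.77-fold higher at 24 h (log2 1.92, SE 0.49, adjusted p = 0.0221) and 5.58-fold higher at 48 h (log2 2.48, adjusted p = 0.0239). The first call was lost without 24 h A or 24 h B (adjusted p 0.0509 to 0.0701) and the second without sham A, 48 h A or 48 h B (adjusted p 0.052 to 0.0693). Its other probe set gave the same reading on all 6 GalN livers, a background reading, and measures no change. The peroxisomal forms Acot3 and Acot4 spread widely in sham (4.44 to 8.34 and 5.46 to 7.41) and were not called, although the 48 h livers of Acot3, at 8.64, 8.54 and 10.77, all lay above sham. The 4 genes are close paralogs whose probe sets may share targets.

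Cyp4a14, the omega-hydroxylase known as one of the most responsive targets of PPAR alpha, was not called in liver, where its sham livers spread over more than 4 log2 units. They read 12.10, 11.13 and 7.47, the 24 h livers 13.95, 11.74 and 8.97, and the 48 h livers 14.55, 14.65 and 14.53. The 48 h livers were tightly grouped above all others, with a difference of 4.35 from sham (95% interval 0.81 to 7.88, adjusted p = 0.123).

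Pdk4, the kinase that shuts pyruvate out of oxidation, read 3.94, 2.99 and 3.59 in sham, 6.18, 4.95 and 6.08 at 24 h and 7.49, 7.34 and 6.49 at 48 h. The 3 groups did not overlap. The difference was 2.23 at 24 h (SE 0.43, adjusted p = 0.00757) and 3.60 at 48 h (adjusted p = 0.0066), and since sham B is a background reading these sizes are lower bounds. Bdh1, the enzyme that interconverts the ketone bodies, read 12.98, 13.29 and 12.91 in sham, 9.88, 10.52 and 9.99 at 24 h and 13.21, 13.02 and 12.50 at 48 h. It was 7.64-fold lower at 24 h (log2 -2.93, SE 0.24, adjusted p = 2.84e-04), the largest called fall of the list, and at 48 h it overlapped sham (-0.16, adjusted p = 0.749). Its other probe set differed by -5.49 at 24 h, a bound on the size, since 24 h A is a background reading there.

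Vnn1, a pantetheinase and a known target of the receptor, crossed sham. It read 10.97, 11.28 and 10.40 in sham, 9.30, 10.41 and 8.72 at 24 h and 13.44, 13.14 and 12.95 at 48 h. At 24 h it was 2.65-fold lower, with 1 array overlapping sham (adjusted p = 0.0439), and at 48 h it was 4.89-fold higher without overlap (log2 2.29, SE 0.43, adjusted p = 0.021). The fall was lost without any 1 of 7 arrays, all but sham C and 24 h B (adjusted p 0.0547 to 0.133), and the rise over sham without any sham array, 48 h A or 48 h B (adjusted p 0.0536 to 0.0697). The rise from 24 h to 48 h (log2 3.70, SE 0.43, adjusted p = 0.00138), held without each array in turn.

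**Figure D2:**
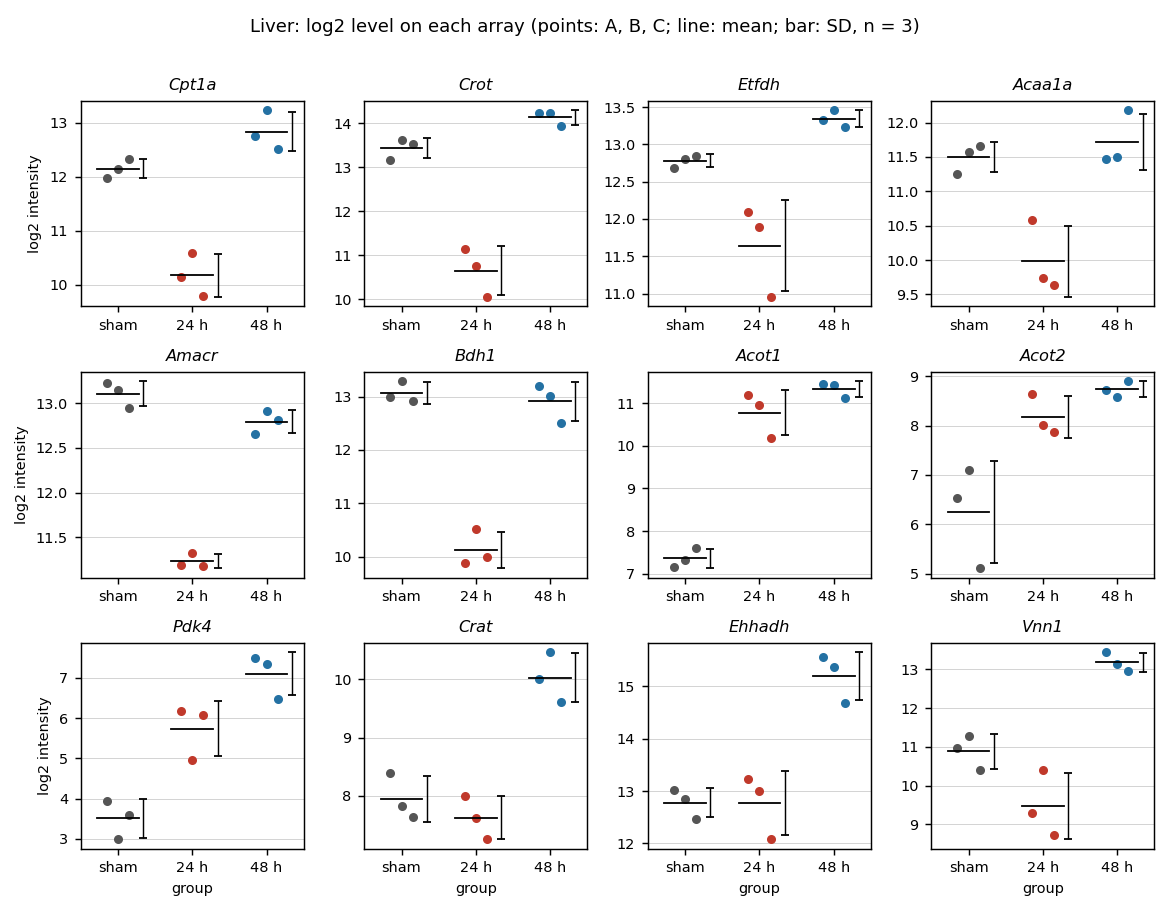
Log2 intensity of 12 members on each liver array (points for A, B and C from left to right, line for the mean, bar for the SD, n = 3) in sham and at 24 h and 48 h after GalN; each panel has its own axis. Cpt1a, Crot, Etfdh, Acaa1a, Amacr and Bdh1 dip at 24 h, Acot1, Acot2 and Pdk4 are already high at 24 h, Crat and Ehhadh rise at 48 h, and Vnn1 falls and then rises above sham.

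Other genes of the pathway, 113 of a further 125 listed genes with a probe set, fell more often than they rose at 24 h. Of the 110 tested in liver, 8 rose and 43 fell, with a median difference of -0.68, where 17.9% and 15% of all genes did. At 48 h 11 were above and 14 below sham, where 6.25% and 3.94% of all genes were. Between the times 44 rose and 8 fell, where 14.7% and 13.2% of all genes did. The peroxisomal group had 13 of 25 genes lower at 24 h, among them Abcd3, a peroxisomal acyl-CoA importer, which went from 14.21, 14.18 and 14.17 to 12.27, 12.46 and 12.10 (3.75-fold lower, adjusted p = 1.37e-04). Of the carnitine genes 5 of 6 tested fell, including Slc25a20, the inner membrane carnitine carrier, by 1.33 (adjusted p = 0.00387). Ppargc1a, the coactivator that works with PPAR alpha, fell by 2.61 (adjusted p = 0.0193), with 3.48, 6.10 and 4.99 at 24 h against 7.09, 7.45 and 7.86. Pdk2, another pyruvate dehydrogenase kinase, was 7.10-fold lower (adjusted p = 1.27e-04), and Cyp8b1, the sterol hydroxylase of cholic acid synthesis, went from 13.23, 13.24 and 12.94 to 5.11, 4.52 and 3.08 (adjusted p = 1.44e-04).

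Against that direction Cidec, a lipid droplet protein, read 4.13, 4.15 and 4.39 in sham and 9.07, 9.74 and 10.28 at 24 h (adjusted p = 1.09e-04), and the mitochondrial thioesterase Acot9 rose by 2.42 (adjusted p = 0.0105). Hilpda, a lipid droplet protein, read 4.24, 3.60 and 4.06 at 24 h where sham was at background (adjusted p = 0.0128). At 48 h Cidec and Acot9 remained high (4.93 and 3.67 above sham, adjusted p 0.00148 and 0.00885), and Cd36, the fatty acid translocase, rose from 9.50, 9.86 and 9.79 to 12.03, 11.51 and 11.88 (4.25-fold, adjusted p = 0.00364). The genes lower at 48 h with the smallest p were Fads1, a fatty acid desaturase (-1.63, adjusted p = 0.00478), Ivd, an enzyme of leucine breakdown (-1.26, adjusted p = 0.00508), and Acacb, which makes the malonyl-CoA that inhibits Cpt1a (-2.01, adjusted p = 0.00606).

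In kidney the members moved less. At 24 h 3 rose, where 2.21% of all genes rose, and 3 fell, where 3.09% of all genes fell. At 48 h 5 rose, where 1.31% of all genes rose, and 2 fell, where 1.46% of all genes fell. The median difference was 0.23 at 24 h and 0.29 at 48 h, against 0 over all genes at both times. From 24 h to 48 h 1 rose, where 0.959% of all genes rose, and 0 fell, where 0.659% of all genes fell; at an unadjusted p under 0.05 the counts were 3 and 3, and rank product gave 3 and 0. The kidney counts moved when single arrays were left out. The count at 24 h went from 6 to 0 without sham B, 1 without sham A or 24 h B, 2 without sham C and 3 without 48 h B. The count at 48 h went from 7 to 0 without sham A, 48 h B or 48 h C, 1 without sham B and 4 without sham C, 24 h C or 48 h A. Without both arrays that carried brown fat genes, an alternative chosen after seeing the data, 1 member was called at each time, and it was Acaa1b at both.

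White fat genes also varied among the kidneys. Adipoq, the adipocyte hormone, read 8.01, 7.07 and 3.75 in sham, 8.42, 9.23 and 2.22 at 24 h and 2.21, 11.41 and 9.42 at 48 h, so high and low readings occurred in every group. The summed adipocyte level ranged from 4.57 to 8.11 in sham, 3.90 to 9.43 at 24 h and 3.90 to 11.51 at 48 h, with Lep at background throughout. For brown fat markers the range was 9.23 to 10.06 in sham, 8.67 to 11.95 at 24 h and 8.37 to 8.85 at 48 h. Dio2 was at background in all, and Ucp1, Cidea and Cox8b were above background only in sham A and 24 h A. Cox7a1 read 8.22 to 9.75 over all kidney arrays and so entered every sum. Of the adipocyte and brown fat markers tested (2 and 3), limma called none against sham at either time. Of 11 proximal tubule markers 1 rose at 24 h, and 2 rose and 2 fell at 48 h, with summed levels of 17.72 to 17.95 in sham, 17.65 to 17.70 at 24 h and 17.79 to 17.91 at 48 h. Of 8 distal nephron markers 2 rose at 24 h and 1 at 48 h, with median differences of 0.79 and 0.51 and summed levels of 16.38 to 16.54 in sham, 16.39 to 16.65 at 24 h and 16.52 to 16.69 at 48 h. The part of these markers in the kidney results was not tested, except where values without both brown fat arrays are given.

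Cyp4a14 made the largest change of the list in kidney. It read 9.0, 7.29 and 8.33 in sham, 11.22, 11.72 and 12.56 at 24 h and 13.75, 12.09 and 12.61 at 48 h. All GalN kidneys lay above all sham kidneys. The kidneys with Adipoq at background, 24 h C and 48 h A, held the highest Cyp4a14 value of their group. In sham it was the other way, since sham A held the highest Cyp4a14 and the highest Adipoq (8.01). The part of fat in these values was not tested. Cyp4a14 was 12.3-fold higher at 24 h (log2 3.62, SE 0.60, adjusted p = 0.0253) and 24.4-fold higher at 48 h (log2 4.61, adjusted p = 0.0234). Without both kidneys with brown fat genes the differences were 4.33 and 5.01 and were not called (adjusted p 0.0753 and 0.0632). The 24 h call was lost without any sham array or 24 h B (adjusted p 0.0541 to 0.0872) and the 48 h call without sham A, sham B, 48 h B or 48 h C (adjusted p 0.0606 to 0.0701), while the difference stayed between 3.17 and 5.01.

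Eci1, the mitochondrial enoyl-CoA isomerase, read 10.70, 10.45 and 10.83 in sham, 11.77, 12.08 and 11.99 at 24 h and 11.27, 11.52 and 11.57 at 48 h. It was 2.44-fold higher at 24 h (log2 1.29, SE 0.13, adjusted p = 0.0149), a call lost without sham B (adjusted p = 0.0557), and 1.73-fold higher at 48 h (log2 0.79, adjusted p = 0.0347). Without both kidneys with brown fat genes its differences were 1.39 (adjusted p = 0.0604) and 0.81 (adjusted p = 0.104). Hadha rose 1.46-fold at 24 h (log2 0.55, adjusted p = 0.0232), from 11.54, 11.37 and 11.56 to 12.16, 12.05 and 11.89, and was 0.30 above sham at 48 h, not called.

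At 48 h 3 more enzymes rose in kidney. Acaa1b, the peroxisomal thiolase, read 12.92, 12.87 and 12.88 in sham, 13.04, 13.63 and 13.82 at 24 h and 14.01, 14.09 and 14.03 at 48 h. It was 2.22-fold higher at 48 h (log2 1.15, SE 0.18, adjusted p = 0.0305) and stayed called without both kidneys with brown fat genes (log2 1.17, adjusted p = 0.0232). At 24 h its difference was 0.60 with all arrays (adjusted p = 0.101) and 0.85 without those 2 (adjusted p = 0.0353). The thiolase Acaa2 rose 1.53-fold (log2 0.62, adjusted p = 0.0163), from 12.10, 12.27 and 12.10 to 12.75, 12.73 and 12.83. Ech1 rose 1.44-fold (log2 0.53, adjusted p = 0.0314), from 13.70, 13.46 and 13.73 to 14.13, 14.16 and 14.19. None of these sets of values overlapped.

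Crot and Amacr fell in kidney at both times. Crot read 13.76, 13.66 and 13.91 in sham, 12.81, 13.30 and 13.24 at 24 h and 12.86, 13.02 and 13.14 at 48 h, or 1.58-fold (adjusted p = 0.0481) and 1.71-fold lower (adjusted p = 0.044). Amacr read 14.12, 13.92 and 14.28 in sham, 13.38, 13.23 and 13.38 at 24 h and 13.50, 13.31 and 12.87 at 48 h, or 1.71-fold (adjusted p = 0.0462) and 1.84-fold lower (adjusted p = 0.0454). Acaa1a was 1.58-fold lower at 24 h (adjusted p = 0.0278), with 9.63, 9.4 and 9.74 against 10.35, 10.32 and 10.06, and rose by 0.95 from 24 h to 48 h (adjusted p = 0.025). A dimmer Acaa1a probe set read 8.50, 8.21 and 8.06 at 24 h against 8.41, 8.51 and 8.18 in sham, which overlap. The 24 h call of Acaa1a was lost when all its probe sets were averaged. Of these kidney calls, Crot at 24 h was lost without each of the 9 arrays in turn (adjusted p 0.0564 to 0.119), and the calls of Hadha, Acaa1b, Acaa2, Ech1, Amacr and Acaa1a, Crot at 48 h and Eci1 at 48 h were each lost without 3 to 8 of the 9, with adjusted p of 0.0509 to 0.136.

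The members not called in kidney, 30 at 24 h and 29 at 48 h, differed from sham by -0.37 to 1.39 and by -0.30 to 1.92. Among them were targets of the receptor known from liver. Acot1 read 8.67, 8.81 and 9.18 in sham, 9.62, 10.61 and 10.58 at 24 h and 9.81, 9.99 and 11.14 at 48 h; the GalN kidneys all lay above sham, with differences of 1.39 and 1.43 (adjusted p 0.1 and 0.118). Pdk4 and Angptl4 varied widely within groups. Pdk4 read 7.82, 5.92 and 9.36 in sham, 7.94, 7.01 and 7.03 at 24 h and 7.99, 8.78 and 11.21 at 48 h, and Angptl4 read 7.24, 7.32 and 10.19, then 7.62, 8.15 and 7.90, then 8.77, 9.32 and 11.67. Both were highest in sham C and 48 h C. Ppara differed from sham by -0.12 and 0.34, and Fgf21 was at background on all 9 kidney arrays. Fabp1 read 8.06, 7.70 and 7.03 at 48 h, above all sham kidneys (6.30, 4.44 and 6.29), but the difference of 1.92 was not called (adjusted p = 0.195). On its dimmer probe set the groups overlapped, with 6.06, 5.07 and 4.52 at 48 h against 2.69, 2.81 and 4.65 in sham.

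Of the further pathway genes 106 were tested in kidney, and 1 rose and 4 fell at each time, with medians of -0.03 and -0.01. Of all genes 2.21% rose and 3.09% fell at 24 h, and 1.31% and 1.46% at 48 h. Retsat, a retinol saturase, was the riser at both times (0.46, adjusted p = 0.03, then 1.08, adjusted p = 0.00455). The genes that fell with the smallest p were Cat, the peroxisomal catalase (-0.40, adjusted p = 0.0172), Oxct1, which uses ketone bodies (-0.39, adjusted p = 0.0177), and malic enzyme Me1 (-0.47, adjusted p = 0.0189) at 24 h. At 48 h they were Me1 (-0.69, adjusted p = 0.00786), the coenzyme A hydrolase Nudt19 (-1.08, adjusted p = 0.0155) and Acad9, an acyl-CoA dehydrogenase needed for complex I assembly (-0.59, adjusted p = 0.0183). Slc25a20, Ppargc1a and Cd36 were not called in kidney.

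**Figure D3:**
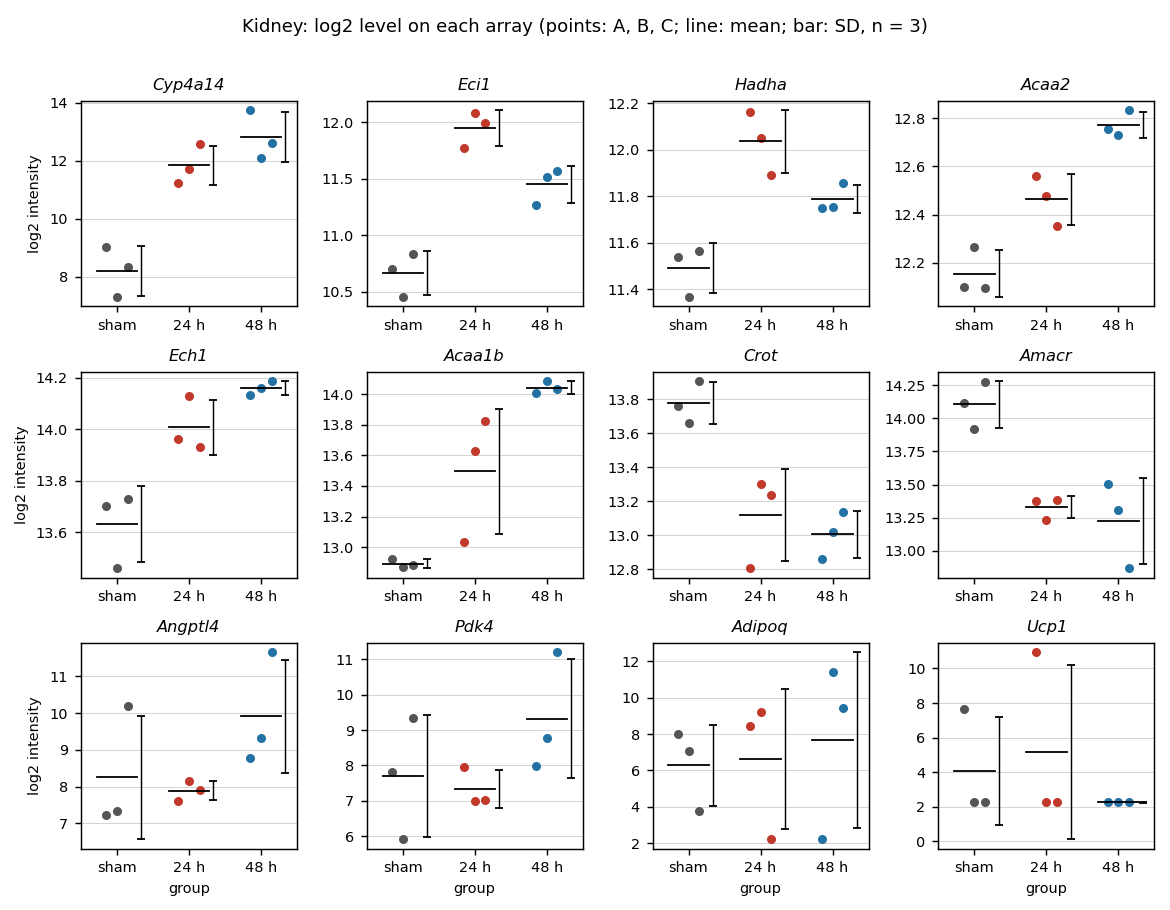
Log2 intensity of 10 members and of the fat genes Adipoq and Ucp1 on each kidney array (points for A, B and C from left to right, line for the mean, bar for the SD, n = 3) in sham and at 24 h and 48 h after GalN; each panel has its own axis. Cyp4a14 lies at 11.22 or more on all 6 GalN arrays and at 9.0 or less in sham, Angptl4 and Pdk4 peak in sham C and 48 h C, and Adipoq and Ucp1 differ between arrays of the same group.

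The change from sham was then compared between the organs, with all 18 arrays in 1 limma fit over the 11655 genes that passed the filter in both. Arrays of both organs were treated as independent, so any mouse that gave both organs is not accounted for in these p-values. At 24 h the kidney change lay above the liver change for 14 of the 36 members, where 14.2% of all genes did so, and below it for 2, where 17.1% of all genes did. The median difference between the changes was 0.70, against -0.02 over all genes. The largest were Bdh1, whose change was 2.59 log2 units higher in kidney than in liver (SE 0.27, adjusted p = 1.21e-05), Vnn1 (2.20), Crot (2.13), Eci1 (1.93) and Cpt1a (1.86), with adjusted p of 0.0063, 2.01e-04, 4.25e-04 and 0.00429. Of these, Vnn1 differed from sham by 0.80 in kidney, not called, and fell in liver, and Eci1 rose in kidney and differed by -0.64 in liver, not called. For Acot1 and Acot2 the kidney change minus the liver change was -2.03 (adjusted p = 0.00696) and -1.47 (adjusted p = 0.0488).

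Without both kidney arrays with brown fat genes, the differences of Acadvl, Acads, Hadha, Acaa2 and Acot2 were no longer called at 24 h, and that of Fabp1 was (2.18, adjusted p = 0.0201).

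At 48 h more members lay on the liver side. The kidney change was higher for 1 member, where 4.58% of all genes were, and lower for 7, where 8.84% of all genes were, with a median of -0.17 against -0.04 over all genes. The 7 were Acot1, Acot2, Crat, Fgf21, Ehhadh, Crot and Acadm, with a kidney change minus liver change of -2.54, -2.24, -2.03, -1.95, -1.78, -1.46 and -0.77 and adjusted p between 0.00195 and 0.0368. For Fgf21 both sham groups and the 48 h kidneys were at background, so its kidney change was not measured and its liver change is a lower bound. The 1 higher in kidney was Acaa2 (0.82, adjusted p = 0.00526). Without both kidney arrays with brown fat genes Fgf21 was no longer called and Fabp1 was (2.27, adjusted p = 0.0292). Cyp4a14, the strongest kidney riser, differed between organs by 2.31 at 24 h and 0.26 at 48 h with neither called (adjusted p 0.326 and 0.953), and the 95% interval at 48 h ran from -3.28 to 3.81.

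**Figure D4:**
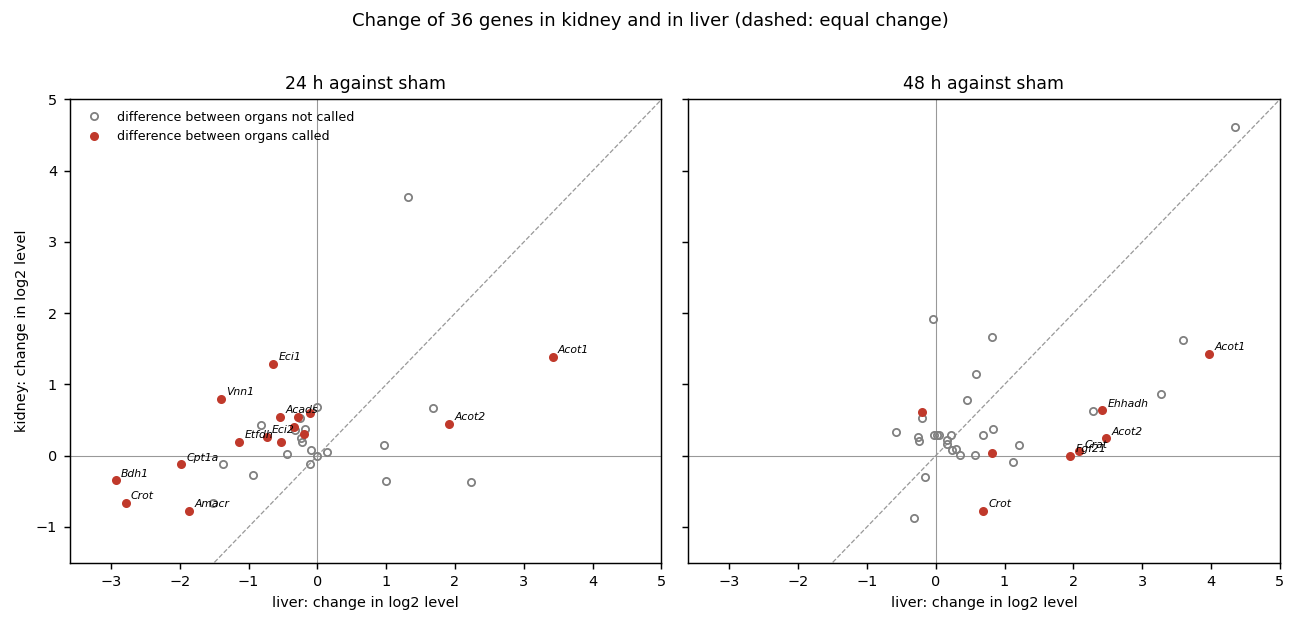
Each point is 1 of the 36 members, placed by its change in log2 level from sham in liver (horizontal axis) and in kidney (vertical axis) at 24 h (left) and 48 h (right); filled red points differ between the organs by limma, names mark those that differ by 1 or more, and the dashed line marks equal change. At 24 h most red points lie left of the line, with Bdh1 and Crot lowest in liver, and at 48 h 7 of 8 lie right of it.

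In sham mice the organs already differed in most members. Liver was higher for 16 of 36, where 19% of all genes were, and kidney for 10, where 28.9% of all genes were higher in kidney. Fabp1 was 16.89, 16.69 and 16.87 in liver and 6.30, 4.44 and 6.29 in kidney. Ppara was 3.74-fold (adjusted p = 4.52e-04), Acaa2 4.09-fold (adjusted p = 1.40e-09), Angptl4 6.72-fold (adjusted p = 0.00832) and Bdh1 2.38-fold (adjusted p = 6.65e-05) higher in liver. Kidney was higher in Pdk4 (liver minus kidney -4.19, a bound on the size since 1 sham liver is at background, adjusted p = 7.07e-04), in Crat, 4.70-fold (adjusted p = 1.97e-06), Vnn1, 3.54-fold (adjusted p = 0.00104), Acadm, 2.63-fold (adjusted p = 5.66e-08), and in the thioesterases Acot1, 2.88-fold (adjusted p = 0.00246), Acot2, 4.62-fold (adjusted p = 1.88e-04), and Acot4, 3.40-fold (adjusted p = 0.0198). Centring each array on its upper quartile moves the median of all genes from -0.05 to 0.34 in this comparison, where the counts are 19 and 9 in place of 16 and 10.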

How the data were processed

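RNA from liver and kidney was measured on 18 arrays, 3 for each of 3 groups per organ. The deposited values are log2 intensities per probe set, made by the authors with GCRMA, per the submitters' processing notes; no version is given in the sources used here. Scanner files were not analysed here. Of 45101 probe sets, 34945 name 1 gene, 932 several and 9160 none in the platform annotation; for each of 18193 genes the brightest such set, by its mean on all arrays, was used. Genes above the array median on at least 3 of 9 arrays of an organ were tested with limma 3.58.1 in R 4.3.3 (a linear model with 3 groups per organ, trended eBayes), adjusted over all genes tested by Benjamini-Hochberg, at 0.05. Differences between organs and between sham organs used all 18 arrays in 1 fit, with arrays of both organs treated as independent, since the labels do not say whether a letter marks 1 mouse. The members and lists were chosen with earlier results of these data known. Members named with every array are those called with a log2 difference of 1 or more in size in a comparison with sham, and a few others by their role. Of further pathway genes, those with the smallest p in each direction are named, up to 3, plus Slc25a20, Ppargc1a and Cd36. The scripts were tested on simulated data. The alternatives were other filters, normalizations, probe set summaries, limma settings, array sets, a replicate block, a rank product analysis (100 permutations) and leaving out each array. Promoters and their sequences come from RefSeq (GRCm38.p6). Arrays give no read depth, and the number of arrays limits the precision.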

Additional observations from a re-analysis of the deposited data

Results flagged for a closer look

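The change from sham differed between kidney and liver for 24 pairs of gene and time, by limma's test of the difference itself in the fit of all 18 arrays. Each value is the kidney change minus the liver change in log2 units.

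At 24 h the carnitine genes Cpt1a and Crot differed by 1.86 and 2.13. Among mitochondrial enzymes the values were 0.74 for Acadvl, 1.10 for Acads, 0.82 for Hadha, 0.50 for Acaa2 and 1.33 for Etfdh. The auxiliary enzymes Eci1, Eci2 and Decr1 gave 1.93, 1.00 and 0.72, and the peroxisomal Acaa1b and Amacr gave 0.71 and 1.10. Bdh1 and Vnn1 gave 2.59 and 2.20. The thioesterases Acot1 and Acot2 lay on the other side, at -2.03 and -1.47. The calls of Acadvl, Acads, Hadha, Acaa2 and Acot2 were lost without both kidney arrays with brown fat genes.

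At 48 h the values were -1.95 for Fgf21, -2.03 for Crat, -1.46 for Crot, -0.77 for Acadm, -1.78 for Ehhadh, -2.54 for Acot1 and -2.24 for Acot2. Acaa2 gave 0.82. The call of Fgf21 was lost without those 2 kidney arrays, and its kidney readings were all at background, so its kidney change was not measured. Crot is the one gene with called differences of opposite sign at the 2 times. Its change from sham at 24 h was -2.79 in liver and -0.66 in kidney. At 48 h it was 0.69 in liver, not called, and -0.77 in kidney.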

How the results depend on the processing

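No called member changed its direction under any alternative run. Of the called members 3 of 13 in liver at 24 h, 4 of 9 at 48 h and 6 of 19 between the times stayed called under every alternative, and in kidney 0 of 6, 0 of 7 and 0 of 1 by limma. For counts that moved, the cause was not tested unless the setting changes the number of arrays or genes. With array weights the count of called members was 20 in liver at 24 h (13 in the main analysis), 23 in liver at 48 h (9), 11 in kidney at 24 h (6) and 18 for the organ difference at 48 h (8). Rank product gave 3 in liver at 24 h, 7 for liver 48 h against 24 h (19), 3 in kidney at 24 h and 3 for kidney 48 h against 24 h (1). One fit of all 18 arrays gave 15 in liver at 48 h and 2, 3 and 0 in kidney at 24 h, 48 h and between them (6, 7 and 1). Only the 6 arrays compared gave 1 in kidney at 24 h and 0 between its times. With no filter kidney had 3 at 24 h and 2 at 48 h. Without both kidney arrays with brown fat genes, an alternative chosen after seeing the data, it had 1, 1 and 0.

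With the array letter as a replicate block the counts were 11, 7 and 14 in liver and 1, 0 and 0 in kidney. The labels do not say what a letter shares, and no pair of groups had all 3 correlations over 0.1. The highest were between sham liver and sham kidney, at 0.297 for A and 0.32 for C, with 0.0408 for B. Every array of 4 of the 15 pairs of groups correlated best with its own letter, all between a liver and a kidney group.

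Leaving out 1 array gave 9 to 17 members in liver at 24 h, 5 to 10 at 48 h and 15 to 19 between them, 0 to 6, 0 to 6 and 0 to 1 in kidney, 11 to 18 and 6 to 11 for the organ differences at 24 h and 48 h, and 23 to 27 between sham organs. Centring on the upper quartile moved the median of all genes at 24 h in liver to -0.15. Quantile normalization turned the split of 3 higher and 10 lower there to 5 and 9. Precision is limited by 3 arrays a group, and readings at background carry no order.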

Other observations

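Cidec, a lipid droplet gene of liver and fat, was also read on the kidney arrays. It read 5.55, 5.54 and 4.13 in sham, 6.82, 8.24 and 4.12 at 24 h and 4.12, 9.78 and 8.43 at 48 h. Its lowest kidney readings, sham C, 24 h C and 48 h A, were also the arrays with the lowest Adipoq of their group. The gene was chosen for this after its values were seen, and no comparison rests on them.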
